A study of Mus musculus with 11 samples.

Results

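The nuclear-encoded genes of the mitochondrial respiratory chain and ATP synthase were followed in primary mouse hippocampal neurons after 4 h at 1% oxygen. Genes were taken by name: Nduf genes of complex I, Sdha to Sdhd of complex II, Uqcr genes and Cyc1 of complex III, Cycs (cytochrome c), Cox genes of complex IV, and Atp5 genes of complex V. Of 48709 gene IDs counted, 104 were members, after 12 pseudogene rows with such names had been left out. They comprised 36 genes of complex I, 4 of complex II, 9 of complex III, 1 for cytochrome c, 20 of complex IV, 16 of complex V and 18 assembly factors, which help to build the complexes but are not part of them. Atp5s, a factor that associates with the ATP synthase, was grouped with the assembly factors, and Ndufa4 and its relative Ndufa4l2, named as complex I genes, were grouped with complex IV, where the Ndufa4 protein resides.

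The RNA came from cultures kept for 10 days at 20% oxygen, in a standard incubator. Control libraries (n = 6) were from cells that stayed at 20% oxygen, and hypoxia libraries (n = 5) were from cells moved to 1% oxygen for 4 h in a hypoxia workstation, with controls from the same isolation. No genotype, strain or age of the animals was among the labels used here, and nothing states whether libraries of a group came from separate animals or dishes, so p-values measure only the spread between these libraries, which may be technical. Polyadenylated RNA was sequenced as 50-base single-end reads without strand information, and each library held between 16619493 and 31917157 counts, with the fewest in control 1. Summed levels of 5 neuronal markers (Rbfox3, Tubb3, Snap25, Camk2a and Slc17a7) ranged from 3787 to 4335 counts per 1000000 (CPM) in controls and from 3833 to 4103 CPM in hypoxia, and none of the 5 was called. Markers of astrocytes summed to between 1429 and 1636 CPM in controls and between 1411 and 1544 CPM in hypoxia, where Aqp4 fell by 0.20 on the log2 scale. Markers of oligodendrocytes summed to between 35.6 and 50.5 CPM in controls and between 31.6 and 41.2 CPM in hypoxia, and Mog and Olig2 fell; the part of glia in the results was not tested. In such bulk samples, fewer cells of a type and less RNA per cell cannot be told apart.

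The respiratory chain passes electrons from NADH (complex I) and succinate (complex II) through ubiquinone, complex III and cytochrome c to complex IV, where oxygen is reduced to water. Protons pumped by complexes I, III and IV drive the ATP synthase, also called complex V. Complexes I, III, IV and V hold subunits from the nuclear genome and from the mitochondrial genome, while complex II is nuclear-encoded throughout. Several subunits exist as alternative genes that tissues use to different degrees. The hypoxia-inducible factors (HIF) are known in other cells to raise Ndufa4l2 and Cox4i2, the alternatives to Ndufa4 and Cox4i1, when oxygen is low, and neurons depend on oxidative phosphorylation for most of their ATP.

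After 4 h of hypoxia the nuclear-encoded chain was nearly level with the controls. Among the 100 members with enough counts to be tested, 8 were higher and 1 was lower at an adjusted p under 0.05 (edgeR's quasi-likelihood test over all genes, Benjamini-Hochberg adjustment). In the same comparison 10.1% of all 16235 genes tested were called higher and 12.8% lower, so the members' share of higher calls was near that of all genes and their share of lower calls was below it. The median log2 fold change of the members was 0.02, beside −0.02 over all genes tested. An estimate above 0 was found for 62 of the 100 members and for 45.9% of all genes tested. For 97 members the estimate lay within 1.25-fold in either direction, and for 86 members the whole 95% interval did. For 3 members (Uqcrc2, Uqcrh and Ndufaf4) the control and hypoxia libraries did not overlap, where 14.0% of all genes did not (6.72% higher and 7.26% lower). The 8 members that rose were all subunits, spread over complexes I to V, and the only member that fell was the complex I assembly factor Ndufaf4.

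**Figure D1:**
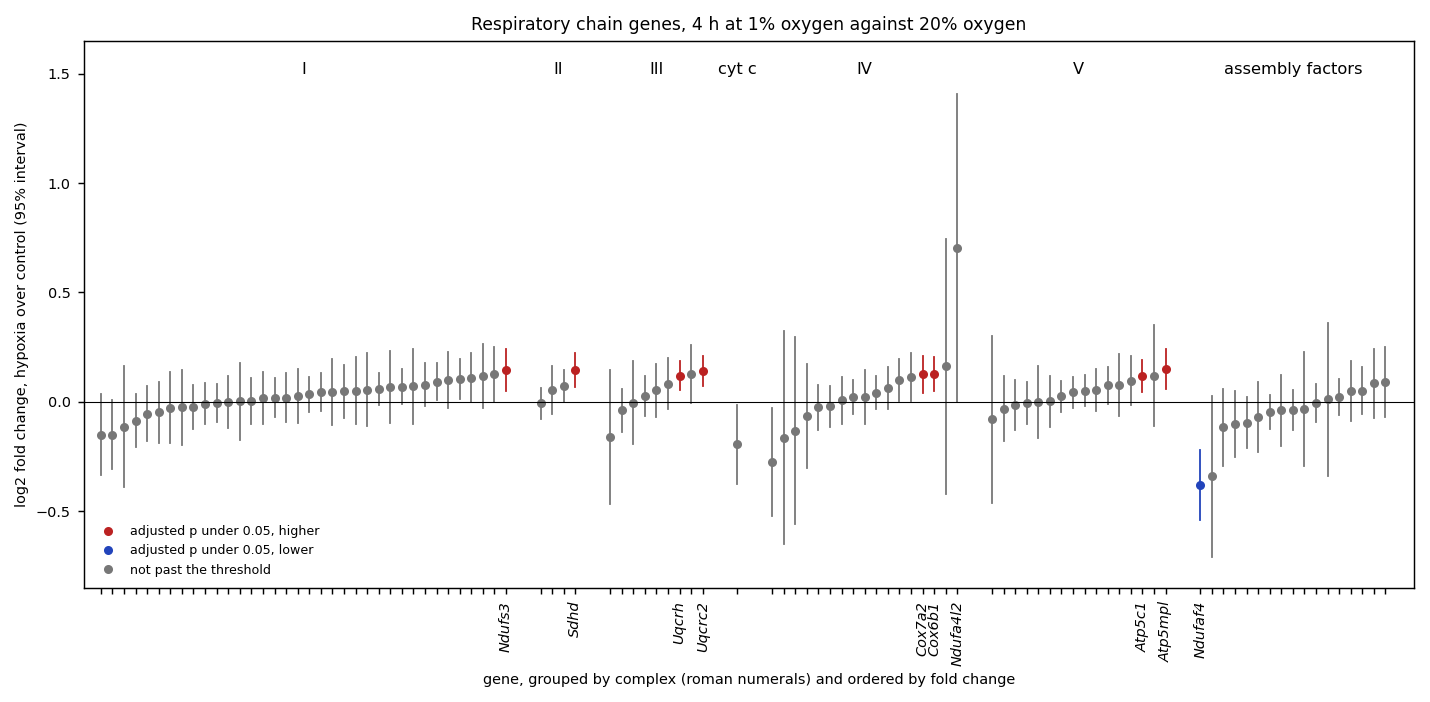
Log2 fold change (hypoxia over control, vertical axis) of the 100 tested members, grouped by complex and ordered within it, with names for the called members and Ndufa4l2; points are edgeR estimates and lines their 95% intervals, red and blue where the adjusted p was under 0.05. The 8 red points lie between 0.12 and 0.15, and Ndufa4l2 has the highest estimate (0.70) with an interval from −0.00 to 1.41.

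Complex I is the entry point for NADH, and its core subunits carry the flavin and the iron-sulfur clusters that relay electrons. Of its 36 genes, all tested, 1 rose and none fell; their log2 fold changes had a median of 0.03, and 24 were above 0. The gene that rose was Ndufs3, a core subunit of the arm that protrudes into the matrix (ENSMUSG00000005510, chr2:90894634-90904827, minus strand, GRCm38). Its level was 25.3 CPM in the lowest control, 27.3 CPM at the median and 28.4 CPM in the highest, against 32, 29.6, 31.3, 28.3 and 29.4 CPM in hypoxia 1 to 5. All hypoxia libraries but hypoxia 4 lay above the highest control. The log2 fold change was 0.14 (SE 0.05, adjusted p = 0.0303, edgeR), a 1.11-fold difference. That call was lost in 4 of the 11 fits that left out 1 library, and without hypoxia 1 its adjusted p was 0.0786, the highest of them.

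None of the 29 accessory subunits of complex I, which surround the core and stabilise it, was called. The largest increase among those was that of Ndufs4, needed for a late step of assembly, at a log2 fold change of 0.13 (adjusted p = 0.146, edgeR). The largest decreases were those of Ndufb7 and Ndufab1, each at −0.15, with adjusted p-values of 0.240 and 0.162. Ndufab1 is also the acyl carrier protein of mitochondrial fatty acid synthesis. Controls of Ndufb7 ranged from 21.1 to 31.0 CPM and its hypoxia libraries from 22.6 to 26.2 CPM, so every hypoxia value lay inside the control range. The core subunits Ndufs1, Ndufs7, Ndufs8, Ndufv1 and Ndufv2 had log2 fold changes between −0.11 and 0.10, and none of them was called.

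Complex II, succinate dehydrogenase, links the citric acid cycle to the chain, and 1 of its 4 genes rose. Sdhd, a membrane anchor that binds ubiquinone (ENSMUSG00000000171, chr9:50596357-50603812, minus strand), measured 129 CPM in the lowest control, 133 CPM at the median and 145 CPM in the highest. The hypoxia libraries 1 to 5 held 153, 149, 144, 145 and 150 CPM. The groups overlapped only through control 1, the highest control, since the other controls did not exceed 135 CPM. The log2 fold change was 0.14 (SE 0.04, adjusted p = 0.0091, edgeR), and the call was kept in all 15 alternative fits. The flavoprotein Sdha was at −0.01 on the log2 scale, the iron-sulfur protein Sdhb 0.05 and the other anchor Sdhc 0.07, with adjusted p-values of 0.922, 0.498 and 0.146.

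In complex III, which moves electrons from ubiquinol to cytochrome c, 2 of 9 genes rose and none fell. Uqcrc2, a core protein on the matrix side (ENSMUSG00000030884, chr7:120635176-120659524, plus strand), had the smallest adjusted p among the members that rose. Controls measured 219 CPM at the lowest, 225 CPM at the median and 237 CPM at the highest, and hypoxia 1 to 5 measured 254, 258, 242, 250 and 244 CPM. Every hypoxia library lay above every control, and the log2 fold change was 0.14 (SE 0.03, adjusted p = 0.0050, edgeR). Reads from 24.8% of the 50-base windows of the Uqcrc2 mRNA also match Pdzd9, an overlapping gene, and counting without strand cannot tell the 2 apart there.

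Uqcrh, the hinge protein that assists the contact of cytochrome c1 with cytochrome c (ENSMUSG00000063882, chr4:116066965-116075071, minus strand), was the other. Its controls were tightly spaced, from 92.6 CPM through a median of 95.1 CPM to 96.5 CPM, and hypoxia 1 to 5 held 103, 102, 99.5, 105 and 104 CPM. The groups did not overlap, and the log2 fold change was 0.12 (SE 0.03, adjusted p = 0.0115, edgeR). Cyc1, the cytochrome c1 protein itself, was at 0.03 on the log2 scale and the Rieske iron-sulfur protein Uqcrfs1 −0.04, neither past the threshold. Uqcrb, at 0.13, was also not called (adjusted p = 0.154). Uqcrq had the largest decrease of the complex at −0.16 (adjusted p = 0.473), and its controls ran from 30.7 CPM in control 1 to 60.8 CPM in control 5, a range that enclosed all hypoxia libraries (36.9 to 43.5 CPM). Cycs, the mobile carrier between complexes III and IV, had controls of 7.30, 8.09 and 9.50 CPM (lowest, median, highest) and hypoxia values of 5.92, 7.08, 7.74, 7.80 and 7.01 CPM. The groups overlapped and the log2 fold change of −0.19 did not pass (adjusted p = 0.113, edgeR).

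Complex IV, cytochrome c oxidase, consumes the oxygen, and 2 of its 17 tested genes rose, both of them small nuclear-encoded subunits around the catalytic core. Cox6b1, which faces the intermembrane space (ENSMUSG00000036751, chr7:30616861-30626151, minus strand), had controls of 173, 190 and 196 CPM at the lowest, median and highest, and 203, 196, 205, 212 and 206 CPM in hypoxia 1 to 5. Hypoxia 2 lay at the level of the highest control and the other 4 hypoxia libraries lay above it. The log2 fold change was 0.13 (SE 0.04, adjusted p = 0.0215, edgeR), and without hypoxia 4 the adjusted p was 0.0608. Cox7a2, the form of subunit VIIa found in most tissues (ENSMUSG00000032330, chr9:79755361-79759878, minus strand), rose by 0.13 (SE 0.04, adjusted p = 0.0344, edgeR), from 106 CPM ± 5.03 (SD, n = 6) to 115 CPM ± 4.62 (SD, n = 5). That call was lost in 7 of the 11 fits without 1 library, and without hypoxia 4 its adjusted p reached 0.0943. The subunits Cox4i1, Cox5a, Cox5b, Cox6a1, Cox6c and Cox8a had log2 fold changes between −0.02 and 0.04, and none was called. Ndufa4 (0.10, adjusted p = 0.119) and Cox7b (0.12, adjusted p = 0.126) passed the threshold only without control 1 among the 15 alternative fits, at adjusted p-values of 0.0131 and 0.0032.

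Complex V, the ATP synthase, had 2 of 16 genes higher and none lower. Atp5c1, the central stalk subunit gamma that turns inside the catalytic head (ENSMUSG00000025781, chr2:10056016-10080510, minus strand), measured 189, 194 and 212 CPM in the lowest, median and highest control. In hypoxia 1 to 5 it measured 213, 213, 208, 219 and 209 CPM. The highest control was control 1, which lay within the hypoxia range, and the other controls did not exceed 194 CPM. The log2 fold change was 0.12 (SE 0.03, adjusted p = 0.0189, edgeR). Atp5mpl, a short membrane protein of the complex (ENSMUSG00000021290, chr12:111961375-111966977, minus strand), rose by 0.15 (SE 0.04, adjusted p = 0.0203, edgeR), from 87.5 CPM ± 5.43 (SD, n = 6) to 97.0 CPM ± 2.88 (SD, n = 5). Without hypoxia 4 the adjusted p-values of Atp5c1 and Atp5mpl were 0.0512 and 0.0561. The catalytic subunits Atp5b and Atp5a1 were the most abundant members per length of mRNA, at 618 and 389 CPM per kilobase, and had log2 fold changes of 0.04 and 0.05 that were not called.

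**Figure D2:**
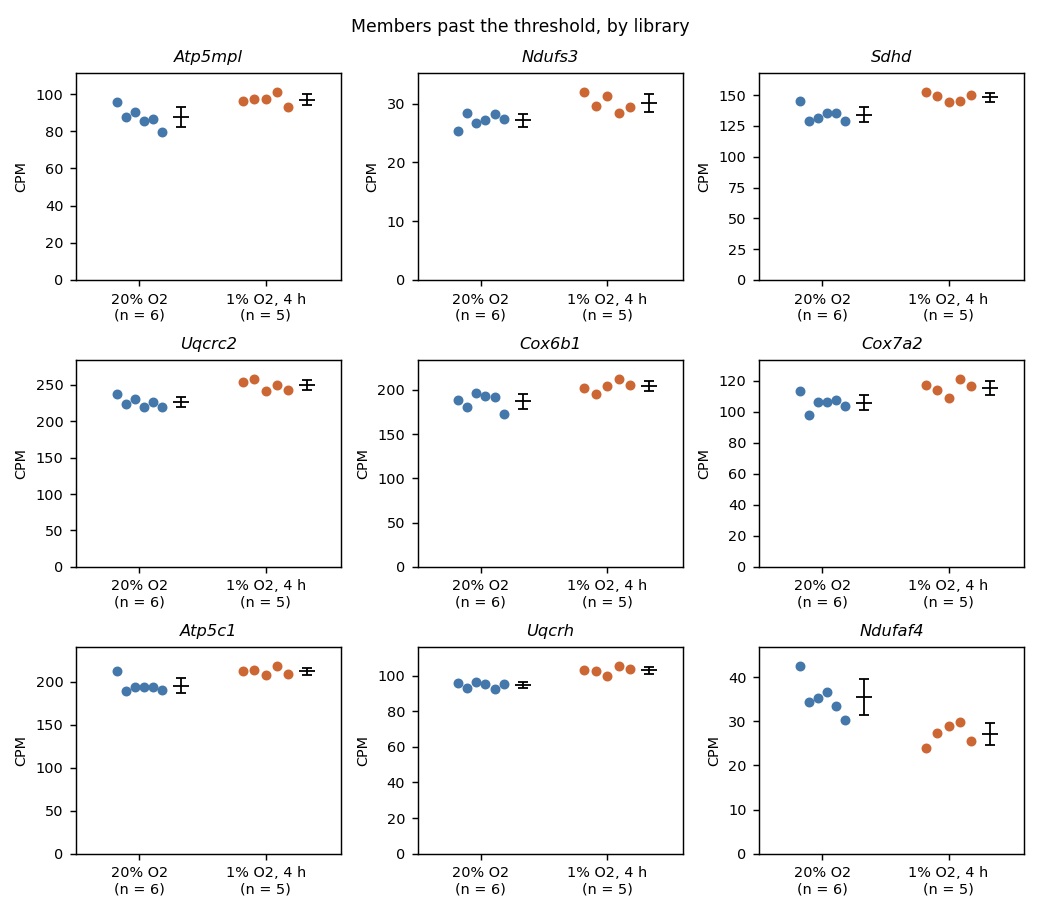
CPM (vertical axes, from 0) of the 9 members past the threshold in each control (blue, n = 6) and hypoxia library (orange, n = 5), with the mean and SD in black. The 8 subunit genes stand 1.09 to 1.11-fold higher in hypoxia, and Ndufaf4 falls from 35.5 to 27.1 CPM.

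Assembly factors insert cofactors and join modules before a complex is complete. Of the 17 tested, none rose and 1 fell, and the median log2 fold change was −0.04 with 6 estimates above 0, beside 0.04 and 56 of 83 for the subunits with cytochrome c. When 1 library was left out, the estimates above 0 numbered 48 to 67 for the subunits and 5 to 8 for the assembly factors. Ndufaf4 acts in the early steps of complex I assembly (ENSMUSG00000028261, chr4:24898083-24905001, plus strand). Controls measured 30.4 CPM at the lowest, 34.9 CPM at the median and 42.6 CPM at the highest, and hypoxia 1 to 5 measured 23.9, 27.4, 29.0, 29.8 and 25.5 CPM. Every hypoxia library lay below every control. The level was 1.30-fold lower in hypoxia, a log2 fold change of −0.38 (SE 0.08, adjusted p = 0.0017, edgeR), and the adjusted p stayed at or below 0.0067 in all 15 alternative fits. The largest increases were those of Ndufaf6 and Ndufaf3, each at 0.09, and the next decrease was that of Ndufaf8 at −0.34, a gene at 1.85 to 3.93 CPM in controls (adjusted p = 0.179). Cox10 and Cox15, which make the haem A of complex IV, had log2 fold changes of 0.05 and −0.05. The copper chaperone Cox17 had −0.12 (adjusted p = 0.355).

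As summed CPM, the nuclear-encoded subunits of every complex were a few percent higher in hypoxia, about the size of the spread between controls. Complex I summed to 1881 CPM ± 78.5 (SD, n = 6) in controls and 1930 CPM ± 52.2 (SD, n = 5) in hypoxia, a difference of 2.60% beside a control SD of 4.17%. The differences were 3.52% for complex II (control SD 2.36%), 4.66% for complex III (4.03%), 4.45% for complex IV (4.37%) and 3.68% for complex V (3.41%). The sum of the assembly factors went the other way, from 341 to 328 CPM, a difference of −3.70% with a control SD of 2.05%. Much of that difference lay in Ndufaf4, the only member called lower, which went from 35.5 to 27.1 CPM. Assembly factors under other names, described further on, summed to between 930 and 973 CPM in controls and between 938 and 966 CPM in hypoxia. These sums carry no test.

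The members did not vary independently from library to library. Of 85 members with a mean of at least 10 CPM, 67 had a larger SD among controls than among hypoxia libraries, and the median coefficient of variation was 6.60% in controls and 4.78% in hypoxia. Controls 5 and 1 held the highest control value for 39 and 27 of the 85, and controls 6, 2 and 1 held the lowest for 28, 27 and 23, so control 1 was often at either end. The widest controls among these belonged to small subunits such as Uqcrq, with a coefficient of variation of 28.0%, and to the core subunit Ndufs7, with 24.7% (16.8 to 31.6 CPM), where the hypoxia values were 7.91% and 8.19%. For Ndufs7, as for Uqcrq, all hypoxia libraries (21.0 to 25.6 CPM) lay inside the control range. With control 1, the shallowest library, left out, 14 members were called higher, where 12.9% of all genes were. Without hypoxia 4, 4 members were (Uqcrc2, Sdhd, Uqcrh and Ndufs3), where 8.49% of all genes were.

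The alternative subunit genes were examined next, because a change of isoform would appear as a change in the ratio of 2 related genes. Ndufa4l2 (ENSMUSG00000040280, chr10:127514967-127517154, plus strand) is the HIF-responsive relative of Ndufa4. It held 0.54 CPM in the lowest control, 0.69 CPM at the median and 1.33 CPM in the highest, against 1.45, 0.98, 0.73, 0.65 and 2.53 CPM in hypoxia 1 to 5. Hypoxia 5 and hypoxia 1 were above all controls, and the other 3 hypoxia libraries were within the control range. The log2 fold change of 0.70 (SE 0.33, 95% interval −0.00 to 1.41) did not pass the threshold (adjusted p = 0.145, edgeR), and without hypoxia 5 the estimate was 0.24 (adjusted p = 0.577). Ndufa4 itself stood at 182 CPM ± 12 (SD, n = 6) in controls. Per length of mRNA the levels over all libraries were 308 CPM per kilobase for Ndufa4 and 1.07 for Ndufa4l2.

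Cox4i2, the alternative to Cox4i1 (ENSMUSG00000009876, chr2:152754173-152765037, plus strand), had 26 counts over all 11 libraries and was not tested in the fit across genes. Controls 1 to 6 held 1, 2, 0, 8, 4 and 1 counts and hypoxia 1 to 5 held 0, 1, 5, 3 and 1. Neither group was higher throughout, and the levels over all libraries were 306 CPM per kilobase for Cox4i1 and 0.12 for Cox4i2. From 16 counts in controls and 10 in hypoxia, the level in hypoxia was 0.780 times that in controls, with a 95% exact (Clopper-Pearson) interval of 0.316 to 1.83 that covers counting error only. Changes inside that interval were not detectable at this depth.

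Both genes are also known from mural cells, the pericytes and smooth muscle cells of vessels. Of 10 mural markers, 7 were tested and 1 rose, where 10.1% of all genes tested were called higher. It was Pdgfrb, a receptor also found on fibroblasts, from 14.5 to 21.4 CPM (log2 fold change 0.56, adjusted p = 3.9e-04, edgeR). The 10 summed to between 34.4 and 41.1 CPM in controls and between 38.8 and 49.6 CPM in hypoxia, and without Pdgfrb the other 9 summed to between 21.5 and 25.1 CPM in controls and between 20.0 and 24.4 CPM in hypoxia. The median log2 fold change of the 7 was −0.15, with 4 estimates below 0. Among the 10, Kcnj8 and Higd1b were at 0 in some libraries and averaged 0.018 and 0.019 CPM. The other mural markers were counted in every library. Their means over all libraries ran from 0.283 CPM (Abcc9) to 17.7 CPM (Pdgfrb), and the pericyte marker Rgs5 averaged 4.10 CPM. Markers of fibroblasts and meninges summed to between 127 and 178 CPM in controls, highest in control 2, and between 109 and 198 CPM in hypoxia, highest in hypoxia 5. Control 2 and hypoxia 5 were also the libraries with the most Ndufa4l2 in their groups. The same libraries had the highest sums of the 12 genes linked to HIF and respiration described further on, at 719 CPM in control 2 (other controls 588 to 654) and 840 CPM in hypoxia 5 (other hypoxia libraries 695 to 796). Of those 12, Pdk1, Higd1a, Lonp1, Bnip3, Mxi1 and Fam162a were highest in both. The mural sum was highest in control 2 but not in hypoxia 5 (40.8 CPM). Hypoxia 1, the other hypoxia library above all controls for Ndufa4l2, went otherwise. Its sum of HIF-linked genes was the lowest in hypoxia (695 CPM), and its fibroblast and meningeal markers summed to 129 CPM. Its mural sum without Pdgfrb was the highest in hypoxia (24.4 CPM). The part of such cells, or of HIF-linked genes, in the Ndufa4l2 values was not tested.

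Ratios of counts within a library were compared for 10 pairs by a 2-sided exact permutation test over the 462 ways to divide 11 libraries, whose smallest possible p is 0.0022. None passed, with adjusted p-values over the 10 pairs between 0.714 and 0.924. The log2 ratio of Ndufa4l2 to Ndufa4 was higher by 0.45 in hypoxia (exact permutation p = 0.297), and that of Cox4i2 to Cox4i1 differed by −0.22 (exact permutation p = 0.781). The muscle forms Cox6a2, Cox7a1 and Cox8b, which heart and skeletal muscle use in place of Cox6a1, Cox7a2 and Cox8a, differed by −0.14, −0.27 and 0.23 relative to those genes. The muscle forms measured 1.02, 2.14 and 0.996 CPM per kilobase, and the common forms 219, 167 and 172. The testis form Cox6b2 was at 3.76 to 6.16 CPM in controls and 4.39 to 5.46 CPM in hypoxia, and its ratio to Cox6b1 differed by −0.18. Cox7a2l, which takes part in joining complexes III and IV into supercomplexes, was at 36.0 CPM per kilobase, and its ratio to Cox7a2 differed by −0.06.

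**Figure D3:**
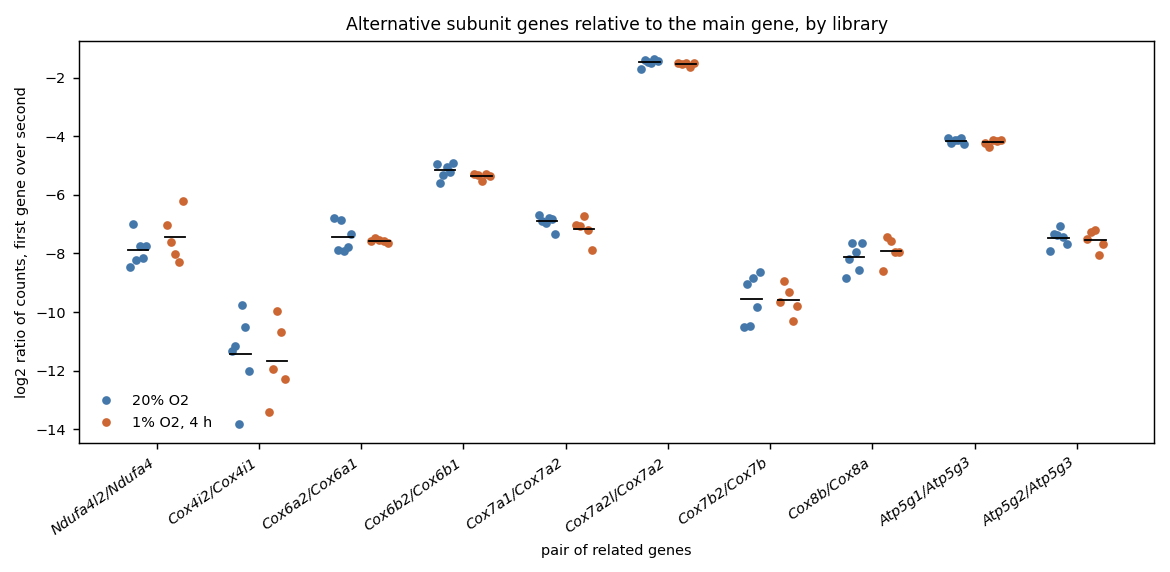
Log2 ratio of counts (0.5 added to each) of 10 pairs of related genes in each control (blue, n = 6) and hypoxia library (orange, n = 5), with group means as lines. The groups overlap in every pair, and the library farthest above its group in the Ndufa4l2 pair is hypoxia 5 at −6.19.

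Genes of the mitochondrial genome supply the other subunits of these complexes. Beside 12.8% of all genes called lower, 6 of the 7 tested mitochondrial genes fell (median log2 fold change −0.40). They were mt-Nd1, mt-Nd2, mt-Nd4, mt-Nd5 and mt-Nd6 of complex I and mt-Cytb of complex III, with log2 fold changes between −0.53 (mt-Nd5, adjusted p = 1.8e-06, edgeR) and −0.18 (mt-Cytb, adjusted p = 0.0032). The complex IV subunit mt-Co1 had −0.01 (adjusted p = 0.898). Reads held no strand information, so counts of a mitochondrial gene, such as mt-Nd6, may include RNA from the opposite strand. The other 6 of 13 mitochondrial subunit genes were at or near 0 counts in every library and were not tested. Sequence shared with other genes was examined for the nuclear-encoded members only. These near-0 counts are therefore not read as levels of the RNA, and mt-Co1 alone stands for complex IV below. The counts of the mitochondrial genes were then set against those of the nuclear-encoded members of the same complex. For complex I, the 5 mitochondrial genes held 8.45 ± 0.529 times the counts of the 36 nuclear genes in controls (SD, n = 6) and 6.14 ± 0.564 times in hypoxia (SD, n = 5). Controls ranged from 8.06 to 9.48 and hypoxia libraries from 5.36 to 6.90, with no overlap. For complex III the ratio was 8.40 to 9.31 in controls and 6.79 to 8.15 in hypoxia, again without overlap, while for complex IV (mt-Co1 alone) 6.40 to 6.98 overlapped 5.87 to 6.80. This ratio was chosen after the values had been seen and carries no test.

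**Figure D4:**
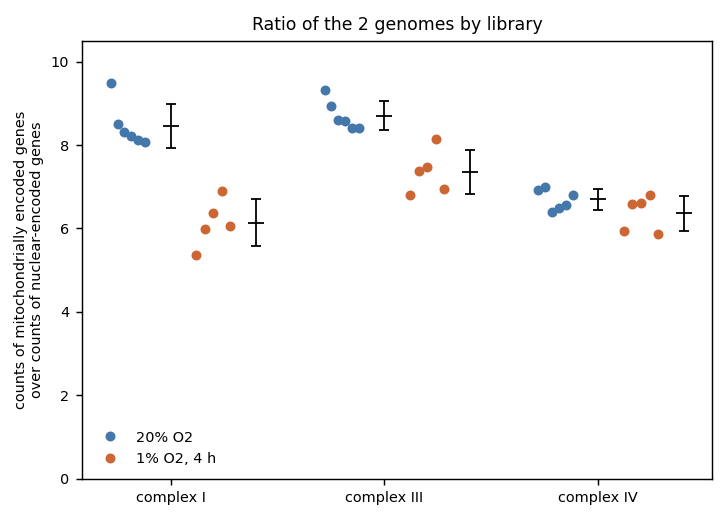
Counts of mitochondrially encoded subunit genes divided by counts of nuclear-encoded genes of the same complex (vertical axis, from 0) in each control (blue, n = 6) and hypoxia library (orange, n = 5), with mean and SD. The groups are apart for complexes I and III (8.45 against 6.14 and 8.71 against 7.35) and overlap for complex IV.

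Other genes of the pathway were taken from lists made by name. Among 12 genes linked to HIF and respiration, all tested, 5 rose and 1 fell, with a median log2 fold change of 0.19. Of all genes tested, 10.1% were called higher and 12.8% lower. Pdk1, the kinase that keeps pyruvate out of the citric acid cycle, rose from 117 to 163 CPM (log2 fold change 0.48, adjusted p = 5.1e-04, edgeR), and its relative Pdk3 rose by 0.28. Higd1a, a small protein associated with complexes III and IV, rose by 0.31 (85.2 to 109 CPM in controls, 105 to 142 CPM in hypoxia), Mxi1, an antagonist of Myc, rose by 0.47, and Fam162a, a mitochondrial protein induced by hypoxia, rose by 0.67. Lonp1, the matrix protease known to degrade Cox4i1 under HIF control, had 0.11 (adjusted p = 0.107), and Hif3a fell by 0.41 from 3.26 to 2.45 CPM. The Hif3a call was lost in 6 of the 11 fits without 1 library (0.0851 as the adjusted p without control 4).

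Of 34 tested assembly factors under other names, 1 rose and 3 fell, and the median log2 fold change was −0.02. Both shares were below those of all genes tested (10.1% higher and 12.8% lower). Coa7, an assembly factor of complex IV, rose by 0.25 (23.6 to 28.1 CPM, adjusted p = 6.8e-04, edgeR), and its groups did not overlap. Hccs, which attaches haem to cytochromes c and c1, fell by 0.32 from 18.7 to 15.0 CPM (adjusted p = 0.0081). Sdhaf3, a factor for complex II, fell by 0.33 (7.21 to 5.71 CPM), and Atpaf1, a chaperone of the ATP synthase head, fell by 0.28 (5.69 to 4.69 CPM). The Sdhaf3 and Atpaf1 calls were lost in 6 and 8 of the 11 fits without 1 library, each most clearly without hypoxia 2 (adjusted p = 0.113 and 0.0930). The 9 transcriptional regulators of the chain had a median of −0.05, and 1 was called in each direction, near the shares of all genes. The coactivator Ppargc1a rose by 0.12 (adjusted p = 0.0387) and Gabpa, an ETS factor that binds many of these promoters, fell by 0.23 (41.0 to 34.9 CPM, adjusted p = 0.0024, edgeR). The Ppargc1a call was lost in 5 fits without 1 library, with an adjusted p of 0.0898 without hypoxia 4. Nrf1, Esrra, Tfam and Yy1 were among the regulators that did not pass.

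Promoters of the chain are known for sites of NRF1 and of GABPA and other ETS factors, so the letters of such sites were looked for in the RefSeq promoter windows (250 bases before the start to 50 after, GRCm38.p6), which were found for 84 of the 104 members. The NRF1 palindrome, GCGCA followed at once by its reverse complement, was in 7.78% of 90 member windows and in 0.971% of all 32851 windows. The ETS core CCGGAAG, on either strand, was in 26.7% and 8.86%. The HIF core, ACGTG or GCGTG on either strand, was in 64.4% and 43.8%. None of these motifs contains another, and a match describes letters and not a bound site. The member windows and all windows were not matched for base composition. Among the called members with a window, Ndufs3, Sdhd, Uqcrh and Cox6b1 held the ETS core, and Ndufaf4 held the NRF1 palindrome. Cox7a2 and Atp5c1 held neither. The HIF core was in a window of each of them except Ndufaf4. The 250 bases before the start are shown for the member that fell and for 2 that rose, on the strand of the gene, with the ETS or NRF1 match in capitals (CTTCCGG is the ETS core on the opposite strand).
Ndufaf4 (chr4:24897833-24898082, plus strand): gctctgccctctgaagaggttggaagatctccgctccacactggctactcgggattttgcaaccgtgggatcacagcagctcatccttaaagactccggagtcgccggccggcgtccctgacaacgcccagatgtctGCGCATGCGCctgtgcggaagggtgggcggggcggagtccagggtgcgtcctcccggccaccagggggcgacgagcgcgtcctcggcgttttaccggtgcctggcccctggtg
Sdhd (chr9:50603850-50604099, minus strand): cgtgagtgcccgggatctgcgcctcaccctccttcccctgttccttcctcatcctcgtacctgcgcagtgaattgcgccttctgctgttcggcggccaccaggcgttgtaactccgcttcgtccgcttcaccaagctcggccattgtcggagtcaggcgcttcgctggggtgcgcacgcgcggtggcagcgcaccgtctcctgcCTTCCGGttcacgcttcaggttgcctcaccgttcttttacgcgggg
Uqcrh (chr4:116075071-116075320, minus strand): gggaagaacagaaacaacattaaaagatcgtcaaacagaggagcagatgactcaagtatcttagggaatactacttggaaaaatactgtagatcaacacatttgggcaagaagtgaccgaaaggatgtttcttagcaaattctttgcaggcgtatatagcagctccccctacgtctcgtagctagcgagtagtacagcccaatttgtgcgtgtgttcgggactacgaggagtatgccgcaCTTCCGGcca
The match begins 113 bases before the start in Ndufaf4, 46 bases in Sdhd and 10 bases in Uqcrh.

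Low counts of some members have to be read with the sequence they share with other genes in view. Counts were low, by a mean under 10 CPM, no test, or a level per kilobase under 0.1 times the complex's median, for 21 members. Of these, 8 shared at least 5% of the 50-base windows of their mRNA exactly with another annotated gene, beside 16 of the 83 other members. The other gene may be a copy elsewhere or a gene that overlaps the member, as Pdzd9 overlaps Uqcrc2. Of all members, 10 shared a window with an annotated pseudogene. A read that also maps to a copy, or that falls in overlapping genes, may go uncounted. How the authors treated such reads is not given in the sources used here. Atp5g1, Atp5g2 and Atp5g3 encode the same mature subunit c, the membrane rotor of the ATP synthase, behind different targeting sequences. Their levels were 3.0, 3.2 and 357 CPM per kilobase, so Atp5g3 supplied most of the counts. The Atp5g1 value rests on a transcript of 4715 bases with a coding sequence of 408. Atp5g1 was flagged as low only per kilobase, at 12.4 to 15.7 CPM in controls. By mean log2 ratio of counts in controls, Atp5g3 stood 17.7 times above Atp5g1 and 177 times above Atp5g2. The start of the coding sequence is shown for the 3 subunit c genes and for 3 other subunits with low counts, from the GENCODE M21 transcript, with bases inside a 50-base run found in an annotated pseudogene in capitals.
Atp5g1 (coding bases 1 to 120): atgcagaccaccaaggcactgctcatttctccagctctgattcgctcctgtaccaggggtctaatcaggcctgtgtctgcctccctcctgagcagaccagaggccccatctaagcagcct
Atp5g2 (coding bases 1 to 120): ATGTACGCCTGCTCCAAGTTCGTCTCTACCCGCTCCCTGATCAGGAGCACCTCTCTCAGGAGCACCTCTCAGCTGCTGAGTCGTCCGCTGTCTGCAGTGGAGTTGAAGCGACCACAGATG
Atp5g3 (coding bases 1 to 120): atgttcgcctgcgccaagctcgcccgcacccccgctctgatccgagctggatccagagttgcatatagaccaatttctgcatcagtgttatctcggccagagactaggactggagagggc
Atp5l (coding bases 1 to 120): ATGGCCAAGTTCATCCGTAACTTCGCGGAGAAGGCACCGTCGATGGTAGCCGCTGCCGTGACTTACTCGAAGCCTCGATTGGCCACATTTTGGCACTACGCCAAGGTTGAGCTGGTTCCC
Cox7c (coding bases 1 to 120): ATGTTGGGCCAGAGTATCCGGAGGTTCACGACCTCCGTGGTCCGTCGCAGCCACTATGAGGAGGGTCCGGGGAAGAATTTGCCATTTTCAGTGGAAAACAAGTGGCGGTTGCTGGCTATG
Ndufb4 (coding bases 1 to 120): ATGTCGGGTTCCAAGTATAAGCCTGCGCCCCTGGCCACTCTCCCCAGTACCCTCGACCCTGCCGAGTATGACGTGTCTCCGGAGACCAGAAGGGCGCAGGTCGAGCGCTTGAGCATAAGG
The coding sequences of Atp5g2, Atp5l, Cox7c and Ndufb4 were matched in pseudogenes over their whole length, and that of Atp5g3 in none.

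For Atp5g2 every window of the mRNA was shared, with the pseudogenes Gm10175 and Gm10231, which averaged 0.134 and 0 CPM. Atp5l, subunit g of the ATP synthase, had 69.3% of its windows shared, mainly with pseudogenes, and 17 pseudogenes at 85% identity or more over at least 50% of its coding sequence. It was counted at 4.21 to 5.66 CPM in controls. Cox7c, a small subunit of complex IV, had 29.1% shared, with Gm12338, and Ndufb4, a membrane-arm subunit of complex I, 37.0% with Ndufb4c. Their controls ranged from 3.83 to 5.74 CPM and from 4.46 to 5.26 CPM. Cox7c had an estimate of −0.27 on the log2 scale (adjusted p = 0.101, edgeR) and was called only without control 2. Cox16 shared 88.7% of its windows with Gm20498, Cox20 59.7% with Cox20b and Hnrnpu, and Cox17 52.7% with Gm21987, none of them called. Neither Gm20498 nor Gm21987 is annotated as a pseudogene. The pseudogenes sharing windows with Atp5l (Gm10221 and Gm4045), Cox7c and Ndufb4 averaged 0, 0.235, 0.082 and 0 CPM, so few reads were counted there. The levels of all 7 genes with shares given here are uncertain. It is not known whether their shared reads were counted for the member, for another gene or not at all.

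Copies did not go with low counts throughout. Cycs and Ndufa1 each had 16 pseudogenes at 85% identity or more, but shared 0.455% and 0% of their windows exactly. Ndufa1 was at 32 to 34.9 CPM in controls, and Cycs was low per kilobase (2.46 CPM). Ndufa4l2 and Cox4i2 shared no window, so their low counts do not come with repeated sequence. The tissue-restricted genes Cox6a2, Cox7a1, Cox7b2, Cox8b and Cox8c were low with 0% to 3.33% of windows shared, and Cox8c had 1 count in all.

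**Figure D5:**
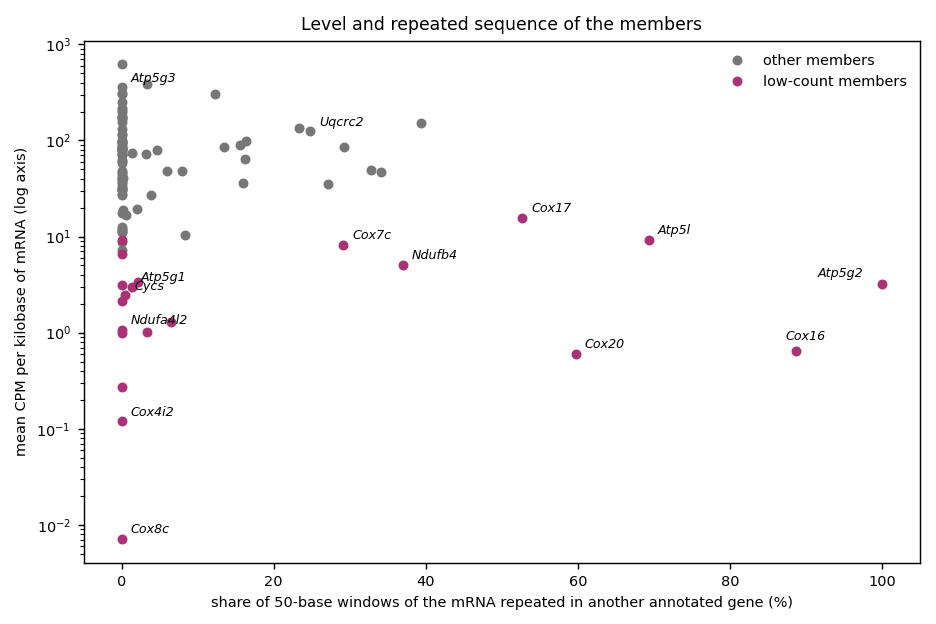
Mean CPM per kilobase of mRNA (vertical log axis) of the 104 members against the share of 50-base windows of their mRNA found exactly in another annotated gene (horizontal axis, %); low-count members are purple. Atp5g2 and Cox16 lie farthest right at 100% and 88.7%, while Cox4i2 and Cox8c are low with 0% shared.

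The authors' deposited table of their own comparison lists 12 members as higher and 1 as lower, among 2099 and 1693 genes in all. The 12 include the 8 called here and add Ndufv3, Atp5j2, Ndufa10 and Cox7b, with log2 fold changes in the authors' deposited table of 0.15, 0.13, 0.11 and 0.12. The member listed as lower is Ndufaf4, at −0.39 in the authors' deposited table.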

How the data were processed

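The members, the gene lists and the rules were chosen with earlier results of these data known. Per the submitters' processing notes, the authors' tools were STAR 2.5.2b, DESeq2, featureCounts, FastQC 0.11.5 and Subread 1.5.1, with build mm10, and raw counts per Ensembl gene ID were deposited. The sources used here do not give the annotation release, strand setting or multi-mapping rule. The authors' deposited table of log2 fold changes and adjusted p-values was read for the last paragraph only; its signal columns, the authors' counts over a size factor, were not used. Of 48709 IDs, 48349 had a GENCODE M21 symbol; 3 member-like names of that annotation had no row.

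Libraries of 16619493 to 31917157 counts were tested with edgeR 4.0.16 (R 4.3.3): filterByExpr, TMM scaling, glmQLFit and glmQLFTest, all 11 libraries, no covariate, Benjamini-Hochberg over 16235 genes. CPM use the TMM-scaled totals. On data simulated from these libraries, 100 genes were changed at each of 2 sizes. The test recovered 51% of 1.25-fold and 92% of 2-fold changes over 16235 genes, with 10 false among 153 calls. Ratios used 0.5 added to each count (scipy 1.17.1). Shared windows came from blastn 2.17.0 against GENCODE M21 transcripts. Named were the called members, Ndufa4l2, Cox4i2, the members of the ratios, low-count members, the 2 largest changes in each direction per complex among members of at least 5 CPM, and up to 4 called genes per direction of the pathway lists besides Pdk1, Higd1a, Lonp1 and Ppargc1a. Other members named, and the other genes of the cell type and regulator lists, were chosen after their values were seen. Alternatives were DESeq2's size factors, DESeq2 1.42.0, no low-count filter, a replicate block and leaving out each library.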

Additional observations from a re-analysis of the deposited data

Results flagged for a closer look

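Among 146 sets of values checked (1 gene or ratio in 1 group each), 8 had a library far from the others of its group; chance flags about 1 in 20 such sets. In control 1, the shallowest library, Atp5c1 was at 212 CPM (other controls 189 to 194), Cox5a at 64.3 CPM (52.8 to 56.8), Ndufab1 at 14.8 CPM (11.3 to 12.1), Sdhaf3 at 8.91 CPM (6.67 to 7.37) and mt-Nd2 at 4184 CPM (3319 to 3608). The log2 ratio of Cox7a2l to Cox7a2 was −1.71 there, beside −1.49 to −1.36 in the other controls. In hypoxia 2, Atp5g1 was at 12.6 CPM (other hypoxia libraries 14.0 to 14.6). In hypoxia 1, Ndufb7 was at 26.2 CPM (22.6 to 23.4).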

How the results depend on the processing

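Members called higher numbered 8 as reported, 8 with DESeq2's size factors, 10 with DESeq2, 7 without the filter, 2 with the replicate block and 4 to 14 when 1 library was left out (lowest without hypoxia 4, highest without control 1); members called lower numbered 1, and 1 to 2 when 1 library was left out (2 without control 2). All genes called higher and lower kept within 1.5 times of 1644 and 2078 in all 15 alternatives. Same-numbered libraries share only a number: the correlation of their deviations ranged from −0.103 to 0.306 over the 5 numbers, 2 of 5 matched best with their own number, and the block left Uqcrc2, Sdhd and Ndufaf4 called. Uqcrh lost its call under the block alone (adjusted p = 0.0568). The cause of these losses was not tested.

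Signs near 0 turned for members that no fit called. Leaving out 1 library gave log2 fold changes of −0.0699 to 0.0151 for Atp5g1, −0.160 to 0.0304 for Atp5g2, −0.0411 to 0.0187 for Atp5h, −0.0408 to 0.0270 for Cox5a, −0.0148 to 0.0656 for Cox6a1, −0.270 to 6.83e-05 for Cox6a2, −0.232 to 0.0325 for Cox7a1, −0.0465 to 0.0128 for Cox8a, −0.0195 to 0.0141 for Sdha and −0.0672 to 0.00878 for Uqcrfs1. Atp5h was at 0.0013 with DESeq2, and Sdha at 0.0060 with DESeq2's size factors, 0.0098 with DESeq2 and 0.0048 without the filter. The difference between groups ran over −0.704 to 0.215 for the Cox4i2/Cox4i1 log2 ratio, −0.238 to 0.141 for the Cox7b2/Cox7b log2 ratio (0.14 with the replicate block) and −0.163 to 0.0475 for the Atp5g2/Atp5g3 log2 ratio. At this depth and number of libraries the test recovered 51% of 1.25-fold changes in simulated data over 16235 genes, so changes of that size could be missed; the sums of each complex kept their direction in all 12 alternatives.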
